A study of Mus musculus with 4 samples.

Results

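The cytosolic ribosomal protein genes were examined in H3f3b knockout (KO) and wild type (WT) mouse embryonic fibroblasts (MEFs), the connective tissue cells grown out of dissociated embryos. H3f3b is 1 of the genes for histone H3.3, the H3 variant that cells deposit into chromatin independently of replication. The arrays held 2 KO lines (H3f3b -/-) and 2 WT lines (H3f3b WT/WT), with 1 array per line. All 4 lines came from littermate embryos of the C57BL6J background at day 12.5 and carried the stable pBabe puro vector. The KO allele had been made in the germline, by Zp3-Cre in oocytes of mice with a floxed H3f3b gene, so the KO lines lacked the gene from fertilization on. Total RNA was read on Illumina MouseRef-8 bead arrays, which measure a signal intensity per probe. Ribosomal protein genes were taken by symbol, as Rpl or Rps followed by a number, with Rplp0, Rplp1 and Rplp2, and without the 6 Rps6k kinase genes. This gave 65 of the 16593 genes named on the array, read by 82 probes. They were 35 large subunit genes, 22 small subunit genes, 6 paralogs that diverged from a core gene (Rpl3l, Rpl7l1, Rpl22l1, Rpl36al, Rpl39l and Rps27l), and Rps19bp1 and Rps23rg1, which are no ribosomal proteins.

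The ribosome is built from a large subunit, which joins amino acids, and a small subunit, which reads the mRNA. Most of their proteins are needed in equal numbers, although the genes are scattered over the genome. The mRNAs of these genes commonly begin with a C and a run of pyrimidines, the terminal oligopyrimidine (TOP) tract, through which mTORC1 and LARP1 control their translation in growing cells.

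In the RefSeq promoter table (GRCm38.p6), 56 of the 65 genes were found. A sense strand run of at least 5 C or T bases that began with C and started within 10 bases of the annotated start was present in 35 of them, or 62.5%, against 34.4% of the 27025 genes in that table. A run reaching in from further upstream was counted from its first C within those 10 bases. A run of at least 8 such bases was present in 22 of the 56, or 39.3%, against 9.43% of all genes. The windows shown run from 10 bases before the annotated start to 20 bases after it, with the run in capitals. They belong to the gene with the lowest difference between genotypes (Rpl7a) and to 2 of the 3 genes of smallest p among those higher in KO (Rpl13a and Rpl22l1). The third of these, Rpl24, had no such run and is not shown. Windows are also given for 1 further gene of each subunit with a long run (Rpl35 and Rps6). The last 3 are genes with no such run that lay lower in KO (Rpl23, Rpl4 and Rps3a1). Of the 21 tested genes without a run, 7 lay higher in KO and 14 lower.
Rpl7a (chr2:26910797-26910826, plus strand): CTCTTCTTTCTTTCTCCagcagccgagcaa
Rpl13a (chr7:45128726-45128755, minus strand): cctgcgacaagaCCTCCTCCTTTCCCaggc
Rpl22l1 (chr3:28805498-28805527, plus strand): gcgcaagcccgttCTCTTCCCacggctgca
Rpl35 (chr2:39005112-39005141, minus strand): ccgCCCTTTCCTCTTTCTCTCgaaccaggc
Rps6 (chr4:86857348-86857377, minus strand): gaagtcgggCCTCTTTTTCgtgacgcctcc
Rpl23 (chr11:97782420-97782449, minus strand): gtccggtcacgtggctgagtgggcggggcc
Rpl4 (chr9:64173377-64173406, plus strand): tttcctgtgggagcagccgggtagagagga
Rps3a1 (chr3:86142649-86142678, minus strand): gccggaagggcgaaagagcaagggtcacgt
Counted in this way, the run was 17 bases long at Rpl7a, 18 bases at Rpl35 and 10 bases at Rps6. At Rpl7a it began at the edge of the window, so its full length may be greater. An annotated start need not be the start that these cells used, so a window without a run says only that the letters are not at that place.

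The letters CCGGAAG, a sequence that some ETS family transcription factors recognize, were searched on both strands of the 300 promoter bases (250 before the start and 50 after it). They were present in 21 of the 56 genes, or 37.5%, against 9.93% of all genes. The windows of Rps6 and of the bright gene Rpl41 are given with the motif in capitals.
Rps6 (chr4:86857440-86857469, minus strand, 91 bases before the start): ttaatctacgcCCGGAAGtaacgcccctct
Rpl41 (chr10:128549206-128549235, minus strand, 56 bases before the start): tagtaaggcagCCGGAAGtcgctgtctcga
CTCTTTC on the sense strand was found in 10 of the 56 promoters (17.9%, against 4.6% of all genes). TATAAA on both strands was found in 6 (10.7%, against 15.7%), and CACGTG, the E-box bound by Myc, also in 6 (10.7%, against 8.09%). A match is a description of the sequence, and no binding was measured here.

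A probe counted as detected on an array where its detection p, which compares it with the negative control probes, was under 0.05. Of the 65 genes, 57 were detected on at least 2 of the 4 arrays and tested (31 large subunit genes, 21 small subunit genes, 4 paralogs and Rps19bp1), and 56 of these were detected on all 4 arrays. The 8 genes that were not tested were Rpl14, Rpl17, Rpl6, Rplp2, Rps23, Rpl3l, Rpl39l and Rps23rg1, each with 1 probe on the array. Of these, Rpl3l is a muscle gene and Rpl39l a testis gene, whereas Rpl14, Rpl17, Rpl6, Rplp2 and Rps23 are core ribosomal proteins that every cell makes, and their levels were not read by these probes. The tested genes lay on 16 chromosomes, with 9 on chromosome 7 and 5 on chromosome 11. Each gene was represented by its brightest tested probe.

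H3f3b itself served as a check of the labels. Its normalized log2 signals were 4.32 and 4.39 in KO, against 10.94 and 10.88 in WT, and it was not detected in either KO line. The gene was at least 69.5-fold lower in KO (limma, adjusted p = 3.05e-05). It was the only gene of the 8047 tested that passed the adjusted test, which is 0.0124% of them. That count was 20 without the first WT array and 0 without the second, 20 with trend and robust variances, and 0 with the strict filter. H3f3b itself fails the detection filter when a WT array is left out and under the strict filter, and no ribosomal protein gene passed in any of these. Of 9 fibroblast markers on the array, all 9 were tested and the lowest p was 0.147. Endothelial markers (0 of 6) and erythroid markers (0 of 5) were not tested because they were not detected on enough arrays, and 3 of 6 epithelial markers were tested. Of these 3, Krt8 overlapped between genotypes, with a difference of −0.14. Cldn4 had log2 signals of 5.43 and 5.30 in KO and 4.36 and 4.29 in WT (limma, adjusted p = 0.452). Krt18 had 4.80 and 4.82 in KO and 4.58 and 4.56 in WT. Both Cldn4 and Krt18 lay below the dimmest detected signals of the WT arrays (4.81 and 4.83). They entered the test through the KO arrays alone, so their place above WT is no sign of a change. All 7 macrophage markers on the array were tested and lay higher in KO, 4 of them at an unadjusted p under 0.05 (beside 4.59% of all tested genes) and all 7 without overlap between genotypes (beside 21%), with deposited signals that summed to 23163 and 18097 in KO, against 11915 and 10023 in WT. The deposited signals of all probes averaged 381 and 382 in KO and 291 and 294 in WT, so that the KO arrays were 1.30 times brighter. In a bulk sample, fewer cells of a type and less RNA per cell cannot be told apart.

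Ribosomal protein genes were among the brightest features of every array. Their median normalized log2 signal was 12.96 and 13.04 on the KO arrays and 12.97 and 13.12 on the WT arrays, whereas the median of all tested genes was 7.10 to 7.12 on the 4 arrays. Of the 57 genes, 40 and 40 were in the top 5% of tested genes in KO, and 41 and 40 in WT. Among the 20 brightest tested genes, 10 and 9 were ribosomal protein genes in KO and 11 and 10 in WT. Only 4 of the 57 lay below the median of all tested genes on each of the 4 arrays, and these were Rpl22l1, Rps15a, Rpl21 and Rps19bp1. The probes of the 57 genes held 6.40% and 6.68% of the signal of all probes in KO and 6.57% and 6.70% in WT, before any normalization. This uncorrected share did not separate the genotypes, since the second KO line lay between both WT lines. After background correction the share was 8.54% and 8.84% in KO, against 9.05% and 9.34% in WT. Both KO lines then lay below both WT lines, and the cause was not tested.

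**Figure D1:**
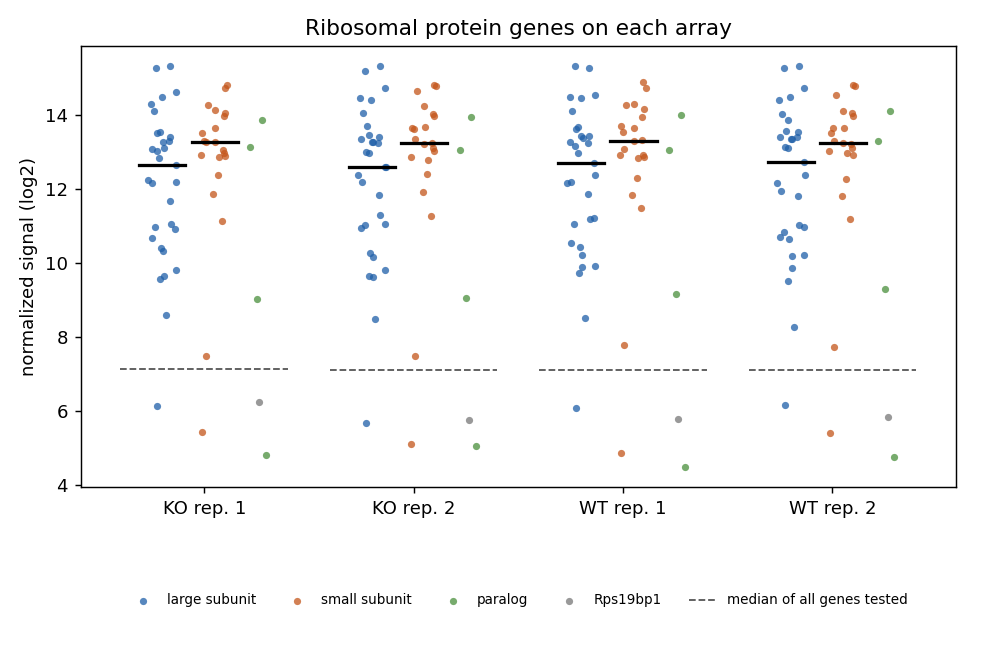
Normalized log2 signal (vertical axis) of the 57 tested genes on each of the 4 arrays, KO left and WT right, 1 point per gene, with black bars at the medians of the large and small subunit genes and a dashed line at the median of all tested genes (7.10 to 7.12). The small subunit genes have medians of 13.23 to 13.29 with Rps3a1 and Rps15a far below, the middle of the large subunit genes is spread more widely, and the picture is alike on all 4 arrays.

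The 2 subunits differed in how their probes were spread. The large subunit genes had median log2 signals of 12.65 and 12.61 in KO and of 12.69 and 12.72 in WT. The small subunit genes had medians of 13.26 and 13.23 in KO and of 13.29 and 13.26 in WT. The large subunit median therefore lay below the small subunit median on every array, with large minus small differences of −0.62 and −0.63 in KO and −0.59 and −0.54 in WT on the log2 scale. The interquartile range was 2.67 and 2.45 in KO, against 2.74 and 2.78 in WT for large subunit genes. For small subunit genes it was 1.11 and 1.20 in KO, against 1.10 and 1.06 in WT. A probe's brightness depends on its sequence as well as on the RNA, so these levels describe the probes and do not say that 1 subunit had more mRNA than the other.

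At the bright end stood Rplp1, a protein of the stalk that recruits elongation factors, Rpl41, the shortest ribosomal protein, and Rps20, a protein of the small subunit head. Rplp1 had deposited signals of 46240 and 44497 in KO and 33761 and 37734 in WT. It was the brightest tested gene on 3 of the 4 arrays, and quantile normalization, which gives each rank the same value on every array, therefore set it to 15.33 on both KO arrays and on the second WT array, against 15.26 on the first WT array. Rpl41 had 15.26 and 15.19 in KO and 15.33 and 15.26 in WT, and Rps20 had 14.73 and 14.82 in KO, against 14.89 and 14.82 in WT. The genotypes overlapped or met in all 3 genes. Their differences were 0.03 for Rplp1, −0.07 for Rpl41 and −0.08 for Rps20 (SE 0.17 each), with unadjusted limma p-values of 0.86, 0.701 and 0.658. The sign of Rplp1 turned with the scaling: it was −0.060 with cyclic loess and −0.038 in the table scaled by the authors.

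No ribosomal protein gene passed the comparison of KO with WT. By limma, 0 of 57 had an adjusted p under 0.05, and 0 had an unadjusted p under 0.05 in either direction, beside 4.59% of all tested genes at an unadjusted p under 0.05 higher in KO and 3.54% lower in KO. The smallest unadjusted p was 0.161 (adjusted p = 0.778). None of the 57 was past 1.5-fold, beside 5.27% of all tested genes. The differences, KO minus WT in log2 units, ran between −0.27 for Rpl7a and 0.31 for Rpl22l1, with quartiles of −0.13 and 0.04. They were under 0.1 in size for 31 genes and under 0.2 for 50.

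The 95% confidence interval covered 0 for all 57 genes. For 46 of them it lay wholly within a 1.5-fold change either way, and its median half-width was 0.41. These intervals hold for quantile normalization only. With median scaling the median difference of the 57 genes was 0.23, and intervals were not computed there. The lowest lower bound was −0.72, for Rpl21, and the highest upper bound was 0.77, for Rpl22l1.

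**Figure D2:**
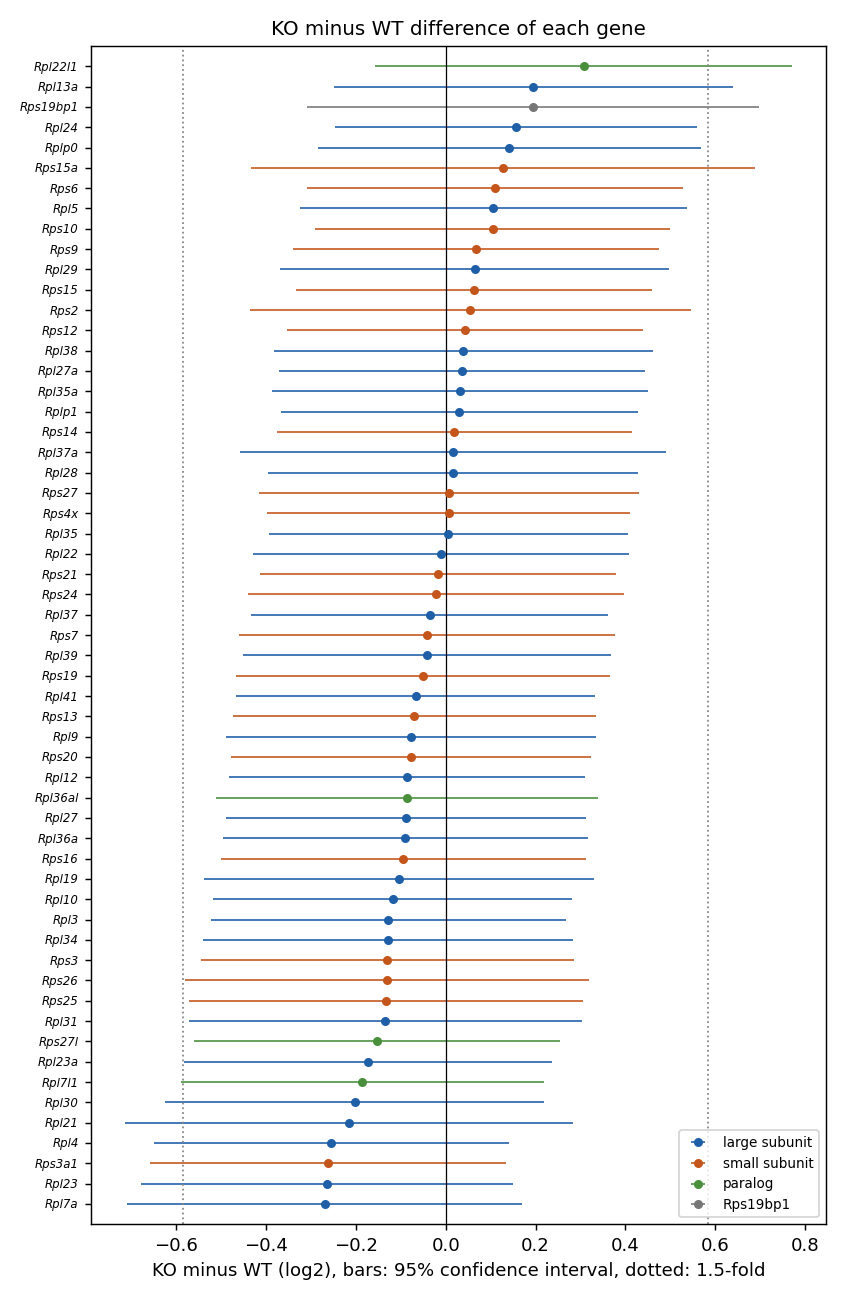
KO minus WT difference (horizontal axis, log2) of each of the 57 tested genes, sorted, with bars for the 95% confidence interval, a solid line at 0 and dotted lines at a 1.5-fold change, and colours for the large subunit, the small subunit, the paralogs and Rps19bp1. All bars cross 0, and the points run between −0.27 and 0.31.

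By sign, 24 of the 57 genes lay higher in KO and 33 lower, beside 52.4% of all tested genes higher and 47.6% lower. Their median difference was −0.04, beside 0.014 for all tested genes, and 36 of the 57 lay below that median of all genes. These directions rest on the scaling. When median scaling replaced quantile normalization, the median of all genes moved to 0.28 and all 57 ribosomal protein genes lay higher in KO, with a median of 0.23, and 34 of them stayed below the median of all genes. Below that median lay 37 of the 57 with cyclic loess and 26 with the table scaled by the authors. In the deposited signals, the KO over WT ratio of the 57 genes had a median of 1.28 (range 1.13 to 1.54), beside 1.28 for all tested genes.

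**Figure D3:**
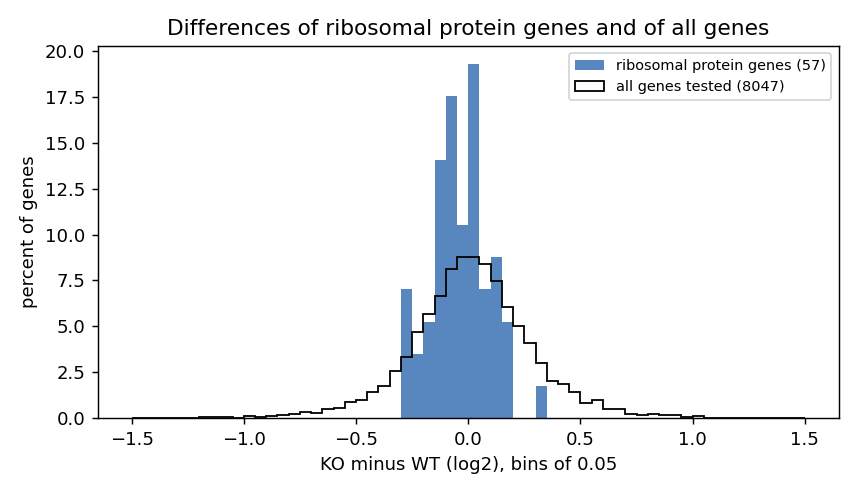
Percent of genes (vertical axis) in bins of 0.05 of the KO minus WT difference (horizontal axis, log2), filled for the 57 ribosomal protein genes and outlined for the 8047 tested genes, of which 14 beyond 1.5 in size are not drawn. The filled bars stay between −0.27 and 0.31, within the bulk of the outline.

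Both KO arrays lay above both WT arrays in 4 genes, Rpl22l1, Rpl24, Rps10 and Rps15, beside 21% of all tested genes. Both KO arrays lay below both WT arrays in 12 genes, beside 17.1% of all tested genes. Of these, 9 were large subunit genes (Rpl7a, Rpl23, Rpl4, Rpl30, Rpl23a, Rpl3, Rpl10, Rpl27 and Rpl12), 1 was a small subunit gene (Rps3a1) and 2 were paralogs (Rpl7l1 and Rps27l). The number below was 0 with median scaling (beside 4.35% of all tested genes) and 19 with cyclic loess (beside 18.4%). The number above was 48 with median scaling, where 56.8% of all tested genes also lay above, and 8 in the table scaled by the authors (beside 18.4%). Large subunit genes had a median difference of −0.067 with 12 higher and 19 lower in KO, and small subunit genes one of −0.017 with 10 higher and 11 lower. With median scaling these medians were 0.22 and 0.27. In the table scaled by the authors the small subunit median was 0.019, above 0, and without the first KO line it was 0.031. The difference between the subunits was not tested, since genes are not replicates of a condition.

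Arrays of 1 genotype lay close together for most of the 57 genes. The median distance between the 2 arrays was 0.085 in KO and 0.12 in WT over the 57 genes, beside 0.17 in KO and 0.24 in WT over all tested genes. It was under 0.2 for 47 of the 57 genes in KO and for 44 in WT. A distance above 0.3 within a genotype was seen in 7 genes, with a maximum of 0.53 for Rps15a. The ribosomal protein probes were also far brighter than the average probe, and the part of brightness in this was not tested. Relative to each gene's mean over the 4 arrays, the 57 genes had median deviations of −0.042 and 0.0046 in KO and of 0.012 and 0.015 in WT. The first KO line thus lay lowest.

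The 3 genes with the smallest p-values among those higher in KO were Rpl22l1, Rpl13a and Rpl24. Rpl22l1, the paralog of Rpl22, had log2 signals of 4.80 and 5.05 in KO and 4.48 and 4.76 in WT. It entered the test through the 2 KO arrays alone, since it was detected in both KO lines and in neither WT line, so its place at the top of the range is no sign of a change. Against the dimmest detected signals of the WT arrays (4.81 and 4.83), the mean of the KO lines was at least 1.07-fold higher (limma, adjusted p = 0.778). This bound holds for the mean only, since the first KO line lay below both of those signals. The genotypes did not overlap, but the first KO line and the second WT line lay close, and in the table scaled by the authors the difference was −0.028. Rpl22 itself had 9.57 and 9.65 in KO and 9.72 and 9.52 in WT, so its genotypes overlapped.

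Rpl13a, which besides its place in the large subunit silences inflammatory mRNAs in human monocytes, had 10.67 and 10.95 in KO, against 10.54 and 10.69 in WT. The genotypes overlapped, and the difference was 0.20 ± 0.19 (SE; limma, adjusted p = 0.873). Rpl24, which forms a bridge between the subunits, had 12.25 and 12.38 in KO and 12.15 and 12.16 in WT. Both KO lines lay above both WT lines, with a difference of 0.16 ± 0.17 (SE; adjusted p = 0.893). With median scaling, Rpl24, Rpl13a, Rplp0 and Rps10 had unadjusted p-values of 0.0306, 0.033, 0.0355 and 0.041, all higher in KO, with adjusted p-values of 0.195 to 0.212, beside 22.5% of all tested genes at an unadjusted p under 0.05 higher in KO under that scaling.

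The 3 with the smallest p-values among those lower in KO were Rps3a1, Rpl4 and Rpl23. Rps3a1, a small subunit protein near the mRNA exit, had 7.49 and 7.48 in KO and 7.77 and 7.72 in WT. Rpl4, which lines the tunnel through which the new protein leaves, had 9.63 and 9.62 in KO and 9.89 and 9.87 in WT. Neither gene overlapped between genotypes, and their arrays agreed within 0.043 inside each genotype. The difference was −0.26 ± 0.17 for Rps3a1 (SE; limma, adjusted p = 0.778) and −0.26 ± 0.17 for Rpl4 (adjusted p = 0.787).

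Rpl23, a large subunit protein that can also bind the p53 regulator Mdm2, had 13.54 and 13.46 in KO, against 13.68 and 13.85 in WT. The KO lines lay below both WT lines, with a difference of −0.26 ± 0.17 (SE; limma, adjusted p = 0.790). Its 3 tested probes gave differences between −0.26 and −0.12. Rpl23 and Rpl4 had unadjusted p-values of 0.0466 and 0.0466 without background correction, and Rpl23 had 0.0264 with a trend and robust variances, and none of these passed adjustment (adjusted p = 0.656, 0.656 and 0.533). With median scaling the differences were 0.046 for Rps3a1, 0.074 for Rpl4 and 0.040 for Rpl23, all below the median of all genes. Rpl7a, chosen here after its values were seen because its difference was the lowest, had 9.80 and 9.80 in KO and 9.91 and 10.22 in WT, with the second WT line well above the other 3.

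The stalk of the large subunit was read by Rplp0, its base, and by Rplp1, since the probe of Rplp2 was not detected. Rplp0 had 8.59 and 8.48 in KO, against 8.51 and 8.28 in WT. The genotypes overlapped, with a difference of 0.14 ± 0.18 (SE; limma, adjusted p = 0.917). Rplp0 is often used as a reference gene in PCR assays, and its interval of −0.29 to 0.57 covered 0.

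Among small subunit genes, Rps6, the substrate of the S6 kinases, had 13.26 and 13.35 in KO and 13.09 and 13.30 in WT, so its genotypes overlapped. Rps10, 1 of the 2 small subunit genes above WT in both KO lines, had 12.37 and 12.40 in KO, against 12.29 and 12.28 in WT. The other was Rps15, with 11.86 and 11.91 in KO and 11.82 and 11.81 in WT. Both differences were small beside their errors, 0.10 ± 0.17 for Rps10 and 0.063 ± 0.17 for Rps15 (SE). Rps2 differed more between lines than between genotypes, with 14.27 and 14.64 in KO, against 14.27 and 14.53 in WT, the second line of each genotype being higher.

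The genes with the widest spread within a genotype were dim. Rps15a, a core protein of the small subunit, had 5.42 and 5.11 in KO and 4.87 and 5.40 in WT, so that both WT lines bracketed the second KO line. Its difference was 0.13 ± 0.24 (SE; limma, adjusted p = 0.954), and it was −0.14 without the first WT line and −0.030 without the first KO line. Rpl21 had 6.14 and 5.67 in KO and 6.09 and 6.15 in WT, and only the second KO line stood apart. Its difference of −0.22 ± 0.21 (SE; adjusted p = 0.877) became 0.021 without that line, and a second probe of the gene gave 0.16. Rps19bp1, a binding partner of Rps19 that also acts with the deacetylase Sirt1 in human cells, had 6.23 and 5.75 in KO and 5.77 and 5.82 in WT. Here only the first KO line was high, and the difference of 0.19 ± 0.21 (SE; adjusted p = 0.895) was −0.049 without it.

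Paralogs stand beside a core gene and can replace it in some cells. Rpl7l1, the paralog of Rpl7, had 9.02 and 9.04 in KO and 9.15 and 9.29 in WT, with a difference of −0.19 ± 0.17 (SE; limma, adjusted p = 0.866). Rps27l, a p53 target in human cells, had 13.85 and 13.95 in KO and 14.00 and 14.12 in WT, with a difference of −0.15 ± 0.17 (SE; adjusted p = 0.898). Both genes lay lower in both KO lines, with 95% confidence intervals that covered 0, and their differences were 0.15 and 0.16 with median scaling. Rpl36al had 13.13 and 13.06 in KO and 13.06 and 13.30 in WT, and its genotypes overlapped.

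The 4 X-linked genes were looked at apart, since the sex-linked transcripts were uneven over the lines. The brighter Xist probe gave deposited signals of 181 and 107 in KO and 95.8 and 86.8 in WT, and the Y-linked gene Eif2s3y 98.0 and 244 in KO, against 165 and 135 in WT. The first KO line thus stood apart, with the highest Xist signal and Eif2s3y not detected. Rpl10, the protein that joins the large subunit last, had 13.27 and 13.27 in KO and 13.43 and 13.34 in WT, and was lower in both KO lines, with a difference of −0.12 ± 0.17 (SE; limma, adjusted p = 0.932). Rps4x, which escapes X inactivation in human cells, had 13.97 and 14.04 in KO and 13.94 and 14.06 in WT.

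Rpl39, at the tunnel exit, had 13.30 and 13.25 in KO and 13.23 and 13.40 in WT, and Rpl36a had 11.68 and 11.83 in KO, against 11.87 and 11.82 in WT. The genotypes overlapped in these 2 genes and in Rps4x. Without the first KO line the differences were −0.13 for Rpl10, −0.020 for Rpl36a, −0.072 for Rpl39 and 0.031 for Rps4x, so none of the 4 rested on that line for its sign, and all 4 were above 0 with median scaling.

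Of the 57 genes, 10 had several tested probes. In 7 of these the probes gave differences of opposite sign, and in none were they over 0.5 apart. The widest gap was in Rpl21 (−0.22 and 0.16), followed by Rps9 (−0.16 and 0.07) and Rps24 (−0.02 and 0.19). Signs of single genes at this size thus differed between probes of the same mRNA. Ribosomal protein genes have many processed pseudogenes of near-identical sequence, and whether a probe also reads those was not tested.

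Members of the tested list with a pyrimidine run at an annotated start (28 genes) had a median difference of −0.0027, with 14 higher and 14 lower in KO. Those without a run (21 genes) had a median of −0.077, with 7 higher and 14 lower. The run was not tested against the differences, because the genes are not independent samples.

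The same reading was made for other parts of the translation machinery. Translation factors and further genes with TOP mRNAs were measured for 23 genes, with 6 higher and 17 lower in KO, 0 at an unadjusted p under 0.05 in either direction and a median difference of −0.073 (0.25 with median scaling, 0.038 without the first WT line). Over all tested genes, 52.4% lay higher and 47.6% lower, 4.59% and 3.54% had an unadjusted p under 0.05 higher and lower in KO, and the median was 0.014. Npm1, a nucleolar chaperone that helps ribosome assembly and export, had 13.32 and 13.40 in KO and 13.50 and 13.73 in WT, lower in both KO lines (adjusted p = 0.801). Eif4e, the cap-binding factor, and Pabpc1, the poly(A)-binding protein, overlapped between genotypes (limma, unadjusted p = 0.260 and 0.342). Eif4e was dim, with 4.69 to 5.21 on the 4 arrays, near the dimmest detected signals (4.78 to 4.83). Fau and Rpsa encode small subunit proteins under names that the symbol rule does not catch, and their differences were 0.024 and −0.072 (limma, unadjusted p = 0.892 and 0.774). Rpsa lay around the dimmest detected signals, with 4.39 and 4.84 in KO and 4.92 and 4.46 in WT, so its difference says little.

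Genes of rRNA synthesis and ribosome assembly were measured for 48 genes, with 16 higher and 32 lower in KO (47.6% of all tested genes lay lower) and 2 at an unadjusted p under 0.05, both lower, a share near the 3.54% of all tested genes. Their median difference was −0.083, beside 0.014 for all tested genes (0.19 with median scaling, 0.012 without the second WT line). Ubtf, the factor that opens rRNA genes for RNA polymerase I, had 7.32 and 7.30 in KO and 7.85 and 8.08 in WT, a difference of −0.65 ± 0.18 (SE; unadjusted p = 0.00834, adjusted p = 0.542). Bms1, a GTPase of small subunit assembly, was not detected in KO and entered the test through the 2 WT arrays alone, so that its place in the count rests on that filter. It was at least 1.26-fold lower in KO (unadjusted p = 0.0167, adjusted p = 0.543). Ncl, which encodes nucleolin, had 7.80 and 8.03 in KO and 8.15 and 8.53 in WT, a difference of −0.43 ± 0.20 (SE; unadjusted p = 0.0768). None of the 3 passed the adjusted test. The second WT line lay highest for this list, with a median deviation of 0.13, beside −0.052 and −0.049 in KO and −0.065 in the first WT line.

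The ribosomal proteins of mitochondria, which serve a separate ribosome of bacterial type, were measured for 69 of 76 genes. Of these 20 lay higher and 49 lower in KO, beside 47.6% of all tested genes lower, with a median difference of −0.052 (0.25 with median scaling), beside 0.014 for all tested genes. Lower in KO at an unadjusted p under 0.05 was 1 gene, beside 3.54% of all tested genes. That was Mrpl24, with 8.29 and 8.16 in KO and 8.61 and 8.66 in WT, a difference of −0.41 ± 0.17 (SE; unadjusted p = 0.0487, adjusted p = 0.624), which did not keep an unadjusted p under 0.05 without either KO line, without the second WT line or with the line number as a block. Mrpl52 and Mrps30 followed at −0.34 and −0.34 (unadjusted p = 0.101 and 0.104), and Mrps30 was 0.011 with median scaling. The second WT line again lay highest, with a median deviation of 0.086.

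**Figure D4:**
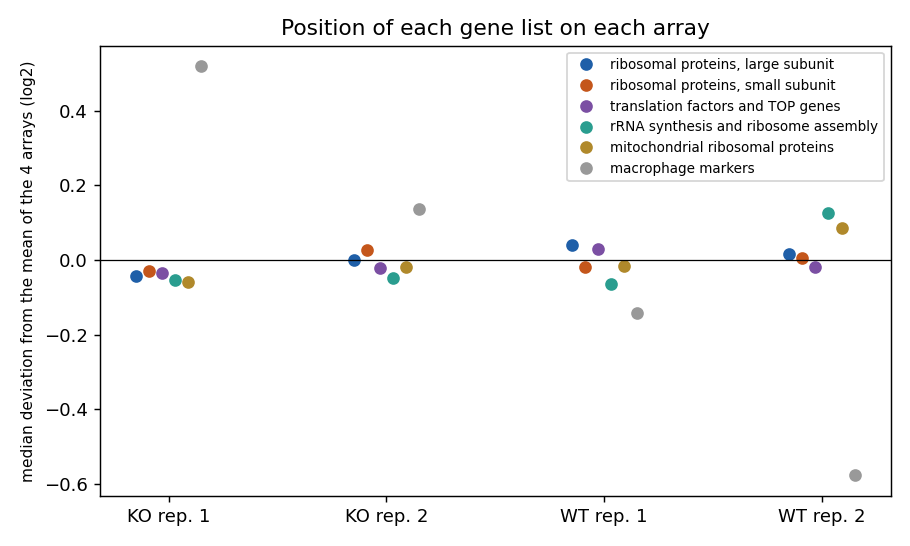
Median deviation from the mean of the 4 arrays (vertical axis, log2) of 6 gene lists on each array, KO left and WT right, 1 point per list. The large and small subunit lists stay within 0.05 of 0 on every array, the mitochondrial ribosomal proteins reach 0.086 on the second WT array, rRNA synthesis and assembly reaches 0.13 on the second WT array, and the macrophage markers run between 0.52 on the first KO array and −0.58 on the second WT array.

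Macrophage markers and the ribosomal protein genes can be set side by side by array. The macrophage markers had median deviations of 0.52 and 0.14 in KO and −0.14 and −0.58 in WT, whereas the ribosomal protein genes stayed between −0.042 and 0.015 on the 4 arrays. The part of the macrophage signal, and of the brightness of the KO arrays, in the small differences of the ribosomal protein genes was not tested.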

How the data were processed

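RNA of 2 KO and 2 WT MEF lines was hybridized to MouseRef-8 arrays. The authors used GenomeStudio to summarise beads per probe and deposited signal intensity values with no background correction or scaling, together with a detection p-value per probe and array. The authors also deposited intensity values brought to a common array mean of 337 by 1 multiplier per array (0.884 and 0.883 in KO, 1.16 and 1.15 in WT). Probes were named through the platform annotation (23978 of 25697 had a gene).

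The unscaled values were taken through limma 3.58.1 (R 4.3.3): normexp background from the detection p-values, an offset of 16, quantile normalization and log2 (neqc). The 11552 probes detected (detection p under 0.05) on 2 or more of the 4 arrays were fitted by lmFit and eBayes, two-sided, with Benjamini-Hochberg adjustment over all of them and a threshold of 0.05. A gene was read by its brightest tested probe. Where a genotype was not detected, the fold is against the dimmest detected signal of each array and is a lower bound. No list was tested as a set. Counts and medians of the main comparison stand beside those of all 8047 genes. Confidence intervals use the moderated SE of the fit.

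The members, gene lists and rules were chosen with earlier results of these data known. Genes named were the 3 of smallest p in each direction, the 3 brightest and 3 dimmest, the X-linked, stalk and paralog genes, the 3 with the widest gap between arrays of a genotype, up to 3 genes of smallest p in each further list, and H3f3b. Others (Rpl7a, Rpl22, Rps2, Rps6, Rps10, Rps15, Fau, Rpsa and the members listed with counts) were named after their values were seen. The labels give separate lines but no litter or culture numbers beyond that. The p-values measure the spread between these lines together with a variance pooled over all tested probes. The pooled part carried 4.86 degrees of freedom, beside 2 from the lines themselves. Where arrays of a genotype lay close together, as in Rpl4, the SE (0.17) came mostly from the pooled part. The steps were checked on simulated arrays with 50 changed probes at each size. The adjusted test called 0% of 1.5-fold, 2% of 2-fold, 76% of 4-fold and 98% of 8-fold changes. A gene that did not pass is therefore not shown to be unchanged. The simulated spread was not matched to that of the ribosomal protein genes. The number of arrays limits the precision. Results were recomputed with median scaling, with cyclic loess, from the values the authors scaled, with uncorrected signals floored at 16, with 50 as the offset, without any filter, with a stricter one (0.01 on every array), with a trended robust prior, with line number as a block, with probes averaged per gene, and with single arrays left out. Promoter sequences came from RefSeq (GRCm38.p6) and were searched in Python 3.11.15.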

Additional observations from a re-analysis of the deposited data

How the results depend on the processing

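No ribosomal protein gene passed the adjusted test under any of the 14 alternatives run. The median of the ribosomal protein genes lay above 0 only with median scaling, which moved the median of all genes to 0.28. Under that scaling the values were 4 ribosomal protein genes at an unadjusted p under 0.05 higher in KO, 48 genes with KO above WT and 0 below, medians of 0.228 for all, 0.223 for large and 0.271 for small subunit genes, 0.249 for translation factors (3 higher at p under 0.05), 0.195 for assembly genes (2 higher, 1 lower) and 0.251 for mitochondrial genes (5 higher, 0 lower). All 33 ribosomal protein genes that lay lower in KO in the main fit turned under it. Among the genes named by rule, those that turned were Rps3a1 (0.046), Rpl4 (0.0738), Rpl23 (0.0401), Rps20 (0.156), Rpl41 (0.106), Rpl10 (0.143), Rpl36a (0.223), Rpl39 (0.218), Rpl36al (0.193), Rpl7l1 (0.145), Rps27l (0.164), Rpl21 (0.0133), Pabpc1 (0.0889) and Mrps30 (0.0112). With cyclic loess 19 genes had KO below WT and Rplp1 was −0.0604. In the table scaled by the authors 8 genes had KO above WT, the large subunit median was −0.0303, the small subunit median 0.0185 and that of translation factors −0.00627, with 4 assembly genes lower and 1 mitochondrial gene higher at p under 0.05, and Rpl22l1 was −0.0283, Rplp1 −0.0375 and Rps15a −0.0732. Genes lower in KO at p under 0.05 numbered 2 ribosomal, 4 assembly and 5 mitochondrial without background correction, 2 mitochondrial with an offset of 50, 4 assembly and 3 mitochondrial without a detection filter, 1 assembly with the strict filter, and 1 ribosomal, 1 translation, 5 assembly and 2 mitochondrial with trend and robust variances. With the mean over probes the large subunit median was −0.0419 and the small subunit median 0.00632. The cause of these shifts was not tested, apart from the common shift that median scaling gave to all genes.

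Line numbers are not pairs in the labels (correlation of same-numbered deviations −0.0365). With the line number as a replicate block, 0 ribosomal protein genes passed the adjusted test and 0 mitochondrial genes were lower at p under 0.05, against 1 without it. The count over all genes tested was 2 with the block and 1 without it, and no other count of the gene lists moved by over 1.5 times.

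With 1 array left out, where the lone array borrows its spread from the other genotype, KO lay above WT in 8 to 14 and below in 20 to 27 ribosomal protein genes, since fewer arrays overlap less often (33.8% to 39.6% and 29.8% to 36.4% of all genes). The large subunit median was −0.0759 to −0.0412, the small subunit median −0.0400 to 0.0306, the median of translation factors −0.0923 to 0.0381 (0 to 1 higher, 0 to 2 lower at p under 0.05) and of assembly genes −0.137 to 0.0115 (0 to 1 higher, 1 to 4 lower), and 0 to 2 mitochondrial genes were lower. Among the genes named by rule, those that turned were Rps15a (−0.141 to 0.41), Rps19bp1 (−0.0491 to 0.433), Rpl39 (−0.131 to 0.0402), Rps4x (−0.0483 to 0.069), Rpl36al (−0.208 to 0.0341), Rpl21 (−0.447 to 0.0208) and Pabpc1 (−0.507 to 0.0463). The strict filter left out H3f3b, Rpl22l1, Rps15a, Bms1 and Eif4e, and leaving out 1 array of the genotype that alone was detected left out Rpl22l1, Bms1 or H3f3b.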
